A study of Mus musculus with 38 samples.

Results

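The genes described here are 9 interferon response genes, Irf7, Irf9, Isg15, Usp18, Ifit1, Ifit3, Rsad2, Oasl2 and Bst2. They were taken by their names from the tables of a left ventricle RNA-seq study, and are 9 of the 29564 genes those tables list. All 9 passed the filter on low counts and were among the 13765 genes tested.

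Type I interferons are secreted signals of antiviral defence. They bind the receptor formed by IFNAR1 and IFNAR2, whose kinases JAK1 and TYK2 activate STAT2, which joins IRF9 in a complex that binds interferon-stimulated response elements (ISREs) in the promoters of response genes. In the heart the pathway is known from viral myocarditis and from immune cells that gather after an infarction. IRF7 amplifies the transcription of the interferons themselves. ISG15 is a ubiquitin-like protein that is attached to other proteins, and USP18 removes it and also dampens the receptor. IFIT1 binds foreign RNA and IFIT3 is its partner, RSAD2 (viperin) blocks viral replication, OASL2 belongs to the oligoadenylate synthetase family and BST2 (tetherin) holds budding virus at the cell surface.

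RNA from whole left ventricle was sequenced in 38 wild-type C57BL6 mice, 1 library per mouse, in 4 groups. Healthy mice on standard chow received vehicle (non_failing, n = 8). In the other groups high-fat feeding together with L-NAME, which blocks nitric oxide synthases, was used to model HFpEF, a heart failure in which the ejection fraction is preserved. These mice received vehicle (HFpEF+Veh, n = 8), an inhibitor of the deacetylase HDAC6 called TYA-018 (HFpEF+TYA-018, n = 11) or empagliflozin, an inhibitor of the kidney glucose transporter SGLT2 (HFpEF+SGLT2i, n = 11). All treatments were oral and daily, but the series title and the methods of the study give different lengths of treatment. The controls differ from the other groups in diet and L-NAME alike, so the parts of diet and drug in the model cannot be told apart. The labels call the mice female and the methods of the study male, and age at collection was not stated. No label names an extraction or sequencing batch.

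The total count per library was 32985934 ± 9191149 (SD, n = 38), from 21451631 to 59280407, and the 9 genes had between 56 and 1240 counts in a library. Summed CPM (counts scaled to a library of 1000000) of 5 cardiomyocyte markers were 14149 to 27450, while the 3 atrial markers summed to at most 8.05 CPM and the adipocyte list to at most 0.598 CPM. One HFpEF+Veh library, V2523, held 1450 CPM of 5 hepatocyte markers against 1.38 to 35.3 CPM in the other HFpEF+Veh libraries, and the main values of the 9 genes and the list counts against vehicle are therefore also given without it. The counts by role and by marker list without it were chosen after seeing the data. Non_failing held 23.3 to 385.7 CPM of these markers, and all 5 were called lower in both drug groups against non_failing. They were called lower against HFpEF+Veh as well, but without V2523 only Apoa1 and Serpina1c were, in HFpEF+TYA-018, and no gene of the whole table in HFpEF+SGLT2i. In HFpEF+Veh against non_failing their median log2 fold change was 0.44 with V2523, and without it -3.62, with all 5 called lower. Their part in the results was not tested. In whole tissue, fewer cells of a type and less RNA per cell cannot be told apart.

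The promoters of the 9 genes differ in whether the letters of an ISRE are present close to the start site. RefSeq promoter windows on GRCm38.p6, from 250 bases before to 50 bases after a start site, were at hand for 8 of the 9 genes, with a pair of windows for Irf9 and none for Usp18. The ISRE core was searched on both strands as GAAA, any 2 bases and GAAA again, which reads TTTC, any 2 bases and TTTC where it lies on the other strand, and overlapping matches were counted. It was found in 5 of the 9 windows of these 8 genes, each of a different gene, and in 3.44% of all 32851 windows. The genes belong to a set known for interferon control, so this share is a description. The stretch from position -180 to -21 is printed below for the genes with matches and for Irf7, 5′ to 3′ on the gene's own strand, with the ISRE letters in capitals.
Isg15: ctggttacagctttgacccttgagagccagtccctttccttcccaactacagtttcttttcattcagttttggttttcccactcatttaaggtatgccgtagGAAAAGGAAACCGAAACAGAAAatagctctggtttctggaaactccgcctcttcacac
Ifit1: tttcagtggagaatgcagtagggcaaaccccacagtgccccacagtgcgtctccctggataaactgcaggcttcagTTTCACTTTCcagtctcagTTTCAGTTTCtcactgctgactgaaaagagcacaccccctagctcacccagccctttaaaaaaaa
Ifit3: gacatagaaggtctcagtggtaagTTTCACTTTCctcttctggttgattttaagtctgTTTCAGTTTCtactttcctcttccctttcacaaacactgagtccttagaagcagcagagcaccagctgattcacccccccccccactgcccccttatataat
Rsad2: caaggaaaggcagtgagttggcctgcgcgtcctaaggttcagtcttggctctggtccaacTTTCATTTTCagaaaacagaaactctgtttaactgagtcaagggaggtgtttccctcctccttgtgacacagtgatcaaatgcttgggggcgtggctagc
Bst2: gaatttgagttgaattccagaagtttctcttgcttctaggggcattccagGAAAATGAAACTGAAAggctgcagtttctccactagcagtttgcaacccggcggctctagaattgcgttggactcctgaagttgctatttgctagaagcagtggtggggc
Irf7: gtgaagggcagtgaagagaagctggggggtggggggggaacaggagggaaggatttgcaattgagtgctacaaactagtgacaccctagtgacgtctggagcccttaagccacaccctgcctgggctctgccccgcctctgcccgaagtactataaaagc

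These stretches lie at chr4:156200839-156200998 (minus strand) for Isg15, chr19:34640709-34640868 (plus strand) for Ifit1, chr19:34583349-34583508 (plus strand) for Ifit3, chr12:26456473-26456632 (minus strand) for Rsad2, chr8:71537493-71537652 (minus strand) for Bst2 and chr7:141266445-141266604 (minus strand) for Irf7. Isg15 held 3 overlapping matches that began at -78, -72 and -66. Ifit1 and Ifit3, neighbours on chromosome 19, each held 2 matches on the other strand, beginning at -104 and -85 in Ifit1 and at -156 and -122 in Ifit3. Rsad2 held 1 match on the other strand at -120, and Bst2 an overlapping pair at -130 and -124. No ISRE match lay in the windows of Irf7, Irf9 or Oasl2, which says only that these letters are absent there. The RefSeq start sites of Irf9 lie 414 and 1008 bases downstream of the start of its gene model given below. Bases before that start were thus not searched.

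**Figure D1:**
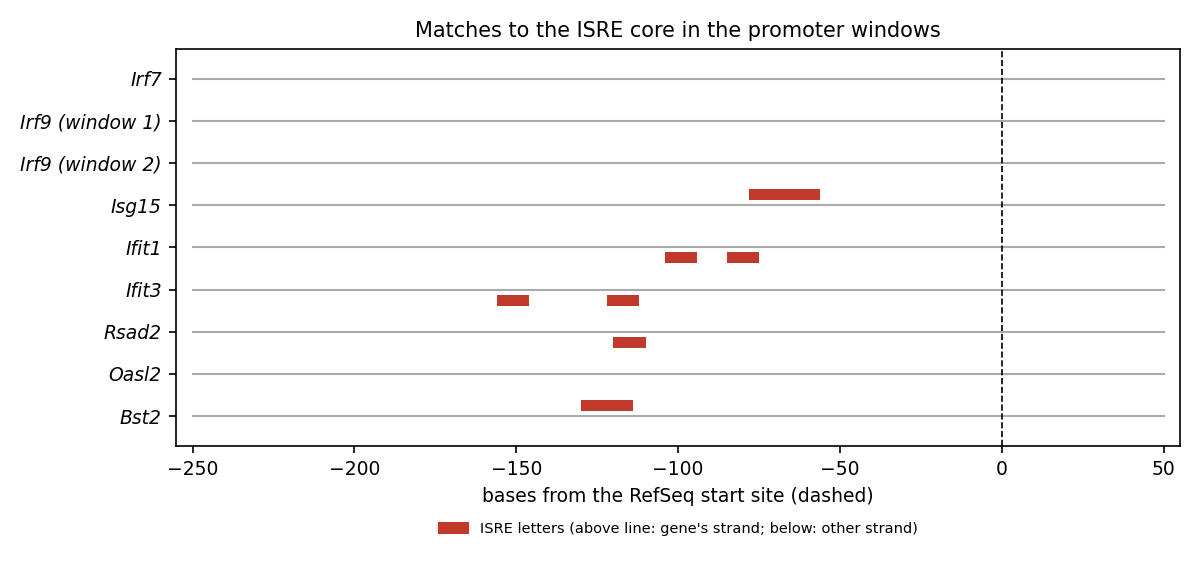
Positions of ISRE letters (red) in the 300-base promoter windows of 8 genes, as bases from the RefSeq start site on the horizontal axis. Matches of 5 genes begin between -156 and -66, and the windows of Irf7, Irf9 and Oasl2 hold none.

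All 9 are protein-coding genes. On GRCm38, Irf7 (ENSMUSG00000025498.15) spans 141262706 to 141266481 of chromosome 7, where it overlaps Phrf1 on the opposite strand, and Irf9 (ENSMUSG00000002325.15) spans 55603571 to 55610030 of chromosome 14, where it overlaps Rnf31 on the same strand. Ifit3 (ENSMUSG00000074896.3) and Ifit1 (ENSMUSG00000034459.8) begin at 34583531 and 34640871 of chromosome 19. Both have related genes beside them, called copies here, Ifit3b (listed as I830012O16Rik) for Ifit3 and Ifit1bl genes for Ifit1. How alike their sequences are was not measured. Any reads shared with the copies were divided by the authors' quantification. Ifit1 took 68.8% of the counts of itself and its copies and Ifit3 75.6%. The share of divided reads is not known, so their values are uncertain. Values given below with copies added are sums over different genes. Isg15 (ENSMUSG00000035692.6, chromosome 4), Rsad2 (ENSMUSG00000020641.16, chromosome 12), Oasl2 (ENSMUSG00000029561.17, chromosome 5) and Bst2 (ENSMUSG00000046718.8, chromosome 8) overlap no other gene, and Usp18 (ENSMUSG00000030107.10, chromosome 6) overlaps Gm44148 on the opposite strand.

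Levels were compared between genes in TPM (transcripts per 1000000), which take length into account. Bst2 was by far the most abundant of the 9 genes, with a mean of 27.4 TPM over the 38 libraries, above 88.6% of the genes tested, and its lowest library (17.1 TPM) lay above the highest of any other of the 9 (14.4 TPM, Rsad2). Next came Irf7 (6.97 TPM), Rsad2 (6.57), Isg15 (6.21), Irf9 (6.01), Ifit3 (5.75) and Oasl2 (4.998 TPM). These 6 did not differ beyond their spread, since each ranged over 2.61 to 14.4 TPM at the widest. Ifit1 (2.35 TPM) and Usp18 (1.68 TPM) were lowest, at or below the 39th percentile of genes tested (38.9 and 31.8), and their ranges overlapped as well. Every gene was detected in every library.

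Levels within a gene are given from here on as CPM with library sizes scaled by TMM factors, which correct for a few very abundant genes taking a larger share of some libraries. Irf7, the amplifier of the response, had 7.65 to 16.01 CPM (median 12.7) in non_failing, 12.5 to 20.7 (median 16.9) in HFpEF+Veh, 12.3 to 24.0 (median 17.3) in HFpEF+TYA-018 and 8.63 to 20.9 (median 11.7) in HFpEF+SGLT2i. All HFpEF+Veh libraries lay above the non_failing mean, and the SGLT2i group ran from near the lowest of the healthy libraries to the highest of the vehicle ones. Irf9, the DNA-binding partner of STAT2, had medians of 17.4, 17.1, 17.1 and 17.4 CPM in that order. It ranged over 11.8 to 19.3 CPM in non_failing, 13.4 to 19.9 in HFpEF+Veh and 12.0 to 19.6 in HFpEF+TYA-018. Its widest range was 10.3 to 21.2 CPM in HFpEF+SGLT2i.

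Isg15 ranged from 3.06 to 7.61 CPM (median 4.79) in non_failing, 2.92 to 9.90 (median 5.42) in HFpEF+Veh, 2.52 to 10.4 (median 5.29) in HFpEF+TYA-018 and 2.30 to 10.3 (median 3.89) in HFpEF+SGLT2i. A single HFpEF+SGLT2i library, V2571, held that highest value, and the 4 groups overlapped throughout. Usp18, which reverses the attachment of ISG15, had medians of 3.04, 3.50, 3.38 and 2.68 CPM in the order used for Irf9. It ranged from 2.05 CPM in HFpEF+SGLT2i V2563 to 5.97 CPM in HFpEF+TYA-018 V2555.

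Ifit1 had 3.03 to 7.47 CPM (median 5.70) in non_failing, 5.17 to 8.55 (median 7.21) in HFpEF+Veh, 4.24 to 13.8 (median 7.51) in HFpEF+TYA-018 and 4.00 to 7.84 (median 5.23) in HFpEF+SGLT2i. TYA-018 hearts were the most spread, from below most healthy hearts to well above every vehicle heart. Ifit3 followed with 7.49 to 14.3 CPM (median 10.1), 8.19 to 15.98 (median 12.4), 7.29 to 24.2 (median 13.1) and 8.61 to 13.1 (median 10.7) in the same order. For both genes the highest library was HFpEF+TYA-018 V2551 and the lowest of that group V2543.

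Rsad2 had 11.0 to 20.3 CPM (median 16.4) in non_failing, 12.8 to 43.9 (median 24.7) in HFpEF+Veh, 11.7 to 33.5 (median 18.4) in HFpEF+TYA-018 and 14.5 to 39.6 (median 20.6) in HFpEF+SGLT2i. The lowest HFpEF+Veh library was V2523, and the highest, V2529, lay more than 11 CPM above the next (43.9 against 32.3). Oasl2 had medians of 9.71, 12.1, 11.7 and 11.0 CPM, with a range of 6.79 to 16.6 CPM over all libraries. Bst2 had 17.0 to 33.2 CPM (median 24.5) in non_failing, 15.6 to 28.2 (median 23.6) in HFpEF+Veh, 14.9 to 29.2 (median 23.2) in HFpEF+TYA-018 and 13.3 to 24.1 (median 20.5) in HFpEF+SGLT2i. Bst2 thus had its highest mean in the healthy group, as had Irf9 by a margin within its spread.

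**Figure D2:**
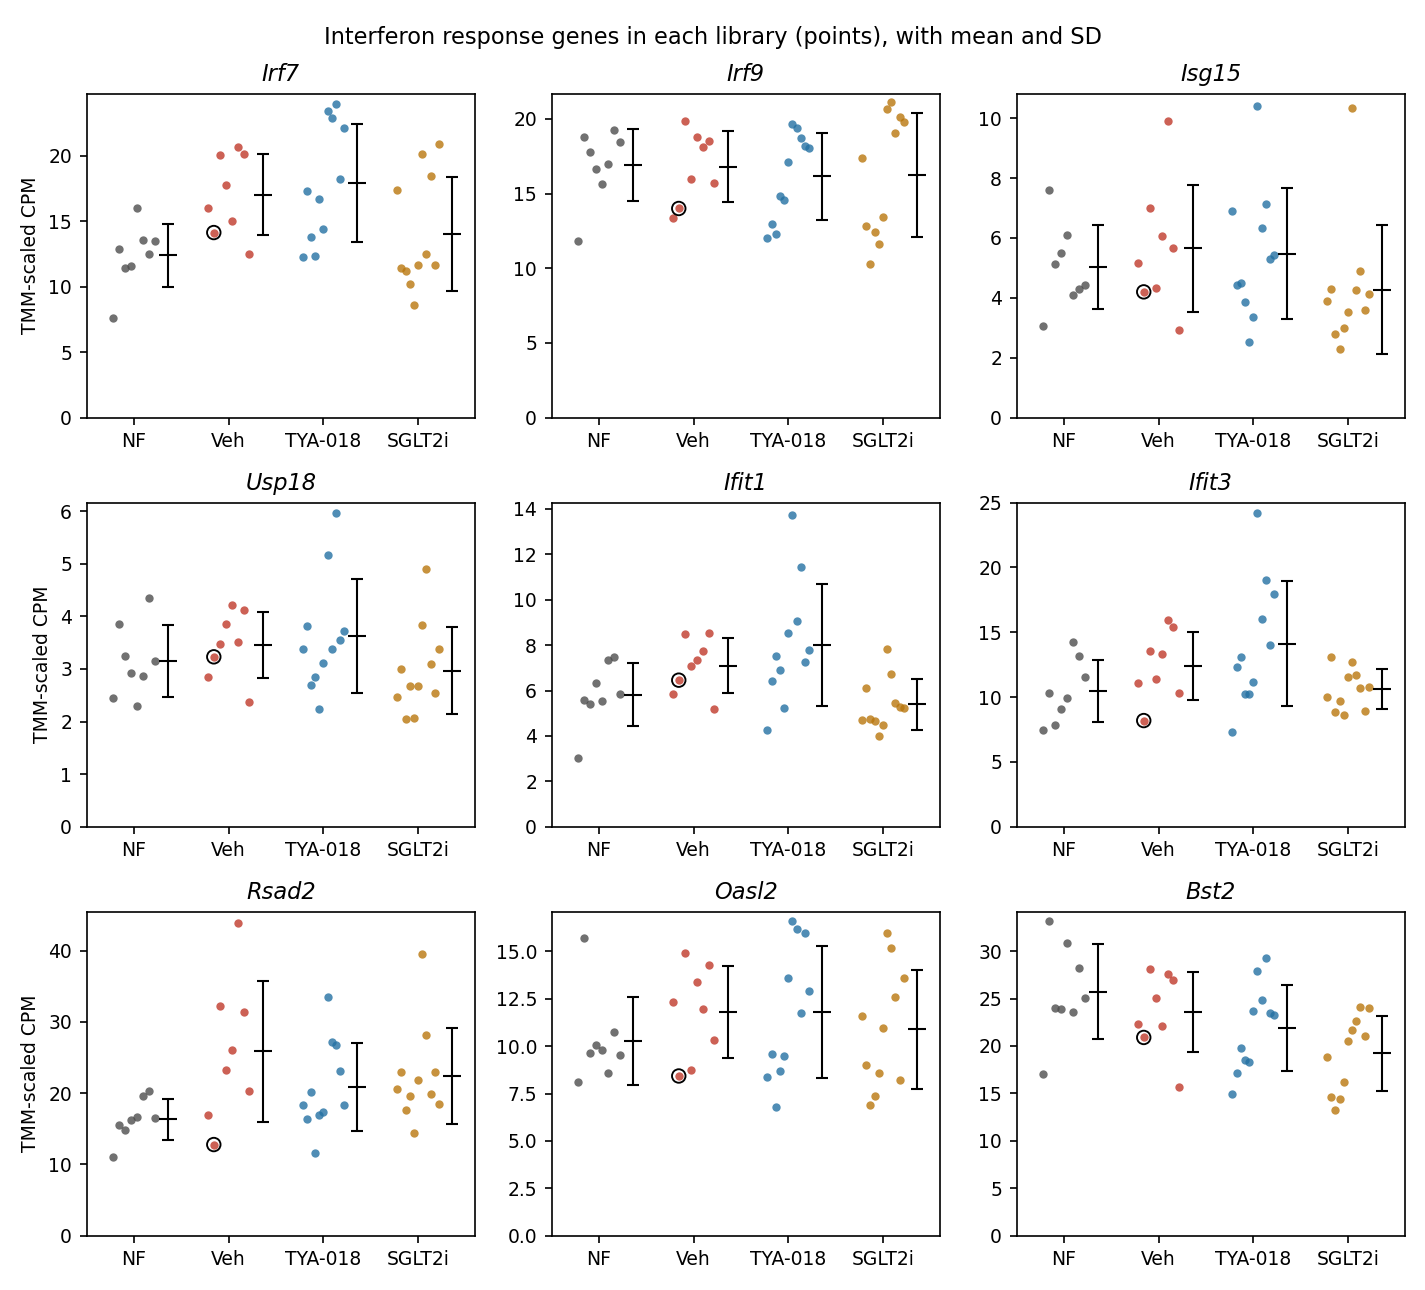
TMM-scaled CPM (vertical axes, from 0) of the 9 genes in each of 38 libraries (points) by group, with the group mean and SD (bars) beside them. NF stands for non_failing, and a circle marks HFpEF+Veh V2523. The groups overlap for every gene, as for Rsad2 with 11.0 to 20.3 CPM in non_failing and 12.8 to 43.9 in HFpEF+Veh.

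The first comparison asked whether the genes differed between HFpEF and healthy hearts. In HFpEF+Veh 7 of the 9 genes were higher than in non_failing, led by Rsad2 (log2 fold change 0.66 ± 0.20 SE, 1.58-fold) and Irf7 (0.46 ± 0.17, 1.37-fold), but none passed the test. The adjusted p was 0.0673 for Rsad2 and 0.162 for Irf7 (edgeR's quasi-likelihood test with Benjamini-Hochberg adjustment over all genes). Irf7 was above the non_failing mean in 8 of 8 HFpEF+Veh hearts and Rsad2 in 7 of 8. At an unadjusted p under 0.05 these were 2 of 9 genes. Over all genes tested, 3.15% were called at an adjusted p under 0.05 and 15.9% had an unadjusted p under 0.05, so 2 of 9 is close to the share among all genes. The other 5 higher genes were Ifit1 (0.28), Ifit3 (0.24), Oasl2 (0.20), Isg15 (0.16) and Usp18 (0.14). Irf9 (-0.01) and Bst2 (-0.13) were not higher, and the median of the 9 log2 fold changes was 0.20 against 0.01 over all genes.

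Rsad2 was the gene whose call turned on single libraries. Without V2523 its log2 fold change was 0.76 with an edgeR adjusted p of 0.0163, in a fit that called 4.49% of all genes. It was also called without V2521 (adjusted p 0.0432), V2532 (0.0452) or HFpEF+SGLT2i V2571 (0.0402), and by DESeq2 (adjusted p 0.0363) and with library size alone (0.0393), while limma on log2(TPM + 1) called none of the 9. Without V2529, its highest vehicle library, Rsad2 moved the other way, to 0.51 with an edgeR adjusted p of 0.196, and Isg15 from 0.16 to 0.0012. Without V2523 Irf7 had 0.49 (edgeR adjusted p 0.115) and the remaining genes kept adjusted p-values of 0.325 or more. With the counts of its copies added, Ifit1 was at -0.01 in place of 0.28.

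The next comparison asked whether TYA-018 changed the genes in HFpEF hearts. It gave 0 calls among the 9 genes by edgeR, also 0 at an unadjusted p under 0.05 and 0 by DESeq2 and by limma, where 1.93% of all genes tested were called and 17.5% had an unadjusted p under 0.05. The log2 fold changes of HFpEF+TYA-018 against HFpEF+Veh ran from -0.31 for Rsad2 to 0.19 for Ifit3. The interval of Rsad2 was -0.68 to 0.07 (95% confidence interval) and that of Ifit3 -0.13 to 0.51. A fall of Rsad2 to -0.68 or a rise of Ifit3 to 0.51 was thus not excluded by the data. Isg15 (-0.04, interval -0.53 to 0.44), Oasl2 (0.0031) and Irf7 (0.08) were near 0, and 5 of the 9 genes were higher and 4 lower. With library size alone Irf7 was at -0.05, Oasl2 at -0.12 and Usp18 at -0.05, in a fit where the median of all genes was -0.14. Without V2523 Rsad2 was at -0.41 with an unadjusted p of 0.0301 (edgeR adjusted p 0.205), and without V2529 at -0.16 (edgeR adjusted p 0.730). Ifit3 was at 0.08 without V2551 and 0.26 without V2543, and at 0.018 at the lowest over the alternative settings.

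Under empagliflozin all 9 genes were lower than in HFpEF+Veh, and none was called by edgeR, DESeq2 or limma. The median log2 fold change was -0.23 against 0.01 over all genes, of which 48.4% were lower. The lowest were Isg15 (-0.41 ± 0.24 SE, lower than the HFpEF+Veh mean in 10 of 11 hearts), Ifit1 (-0.40 ± 0.16, in 10 of 11), Bst2 (-0.30 ± 0.13, in 9 of 11) and Irf7 (-0.28 ± 0.16, in 7 of 11). The unadjusted p was under 0.05 for Ifit1 (0.0212, adjusted p 0.3604 by edgeR) and Bst2 (0.0319, adjusted p 0.431), 2 of 9 genes where 10% of all genes tested had such a p and 0.850% were called. The last share rests on V2523, since without it 2 of 13801 genes (0.0145%) were called. Irf9 (-0.05) and Oasl2 (-0.12) were closest to 0. With copies added, Ifit1 was at -0.22 (edgeR adjusted p 0.524). Isg15 was at -0.24 without V2529 and -0.62 without HFpEF+SGLT2i V2571, and Rsad2, at -0.21, moved to -0.06 without V2529. Without V2523 all 9 remained lower, by 0.09 (Irf9) to 0.47 (Isg15) on the log2 scale. The genes vary together between hearts, so their shared direction is not 9 separate observations. Total counts were 22111261 to 59280407 in HFpEF+SGLT2i and 25573644 to 57723755 in HFpEF+Veh, and the part of depth was not tested.

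Side by side, the drugs were set against each other in 11 hearts each. The Ifit pair had higher means under TYA-018 than under empagliflozin, Ifit1 with 0.57 ± 0.15 (SE, 1.49-fold, above the HFpEF+SGLT2i mean in 9 of 11 hearts) and Ifit3 with 0.42 ± 0.15 (1.33-fold, in 8 of 11), as was Irf7 with 0.36 ± 0.15 (1.28-fold, in 9 of 11). None was called by edgeR, where the adjusted p was 0.103 for Ifit1, 0.199 for Ifit3 and 0.283 for Irf7. These 3 of 9 genes had an unadjusted edgeR p under 0.05 (0.000565, 0.00737 and 0.0194), as had 13.2% of all genes, of which 0% passed the adjusted threshold. DESeq2 called Ifit1 (adjusted p 0.02999) and limma none of the 9. The other genes ran from -0.10 (Rsad2) to 0.36 (Isg15), and the interval of Irf9 was -0.24 to 0.24. Isg15 was at 0.23 without V2551 and 0.58 without V2571. With copies added, Ifit1 was at 0.39 (edgeR adjusted p 0.103). This comparison and the previous ones share their groups, so their values are not independent.

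Against healthy hearts, 7 of the 9 genes were higher in HFpEF+TYA-018, and Irf7 alone was called. In HFpEF+Veh Irf7 had been at 0.46 against non_failing without a call. In HFpEF+TYA-018 Irf7 was 1.45-fold higher than in non_failing (log2 fold change 0.53 ± 0.16 SE, edgeR adjusted p 0.0363) and above the non_failing mean in 11 of 11 hearts. This was 1 of 9 genes, where 7.39% of all genes tested were called, and 3 of 9 genes had an unadjusted p under 0.05 against 22.0% of all genes. Ifit1 (0.46 ± 0.17, edgeR adjusted p 0.0846) and Ifit3 (0.43 ± 0.16, 0.0940) followed, and Rsad2 had 0.35 ± 0.19. Without V2543, the TYA-018 library lowest in Irf7, Ifit1 and Ifit3, these 3 genes were called, with edgeR adjusted p-values of 0.0332 for Ifit1 and 0.0334 for Ifit3. The call of Irf7 was lost when any of V2501, V2503, V2504, V2509, V2551, V2552, V2555, V2559 or V2570 was left out, with log2 fold changes of 0.46 to 0.54 and adjusted p-values of 0.0527 to 0.0746, and with limma on log2(TPM + 1) (adjusted p 0.0962). With copies added, Ifit1 was at 0.16.

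In HFpEF+SGLT2i Bst2 fell against non_failing, to 0.745-fold (log2 fold change -0.42 ± 0.13 SE, edgeR adjusted p 0.0459), and was below the non_failing mean in 11 of 11 hearts. It was the 1 gene called of 9, beside 6.45% of all genes. Rsad2 went the other way with 0.45 ± 0.19 (unadjusted p 0.0234, edgeR adjusted p 0.168), and these 2 of 9 genes had an unadjusted p under 0.05, as had 19.6% of all genes. The remaining 7 lay between -0.24 (Isg15) and 0.17 (Irf7). Isg15 was at -0.46 without V2571 and -0.13 without V2502, and Irf7 at 0.095 without V2501 and 0.23 without V2565. The call of Bst2 was lost on leaving out any of 14 libraries, 6 non_failing (V2502, V2503, V2504, V2507, V2509, V2510), 2 HFpEF+Veh (V2521, V2527) and 6 HFpEF+SGLT2i (V2561 to V2566), with an adjusted p of up to 0.116 without V2502. Its 4 lowest HFpEF+SGLT2i values, 13.3 to 16.2 CPM, were in the 4 deepest libraries of that group (V2562 to V2565, with 42283760 to 59280407 counts), whose part in the result was not tested. By limma on log2(TPM + 1) the Bst2 adjusted p was 0.104.

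**Figure D3:**
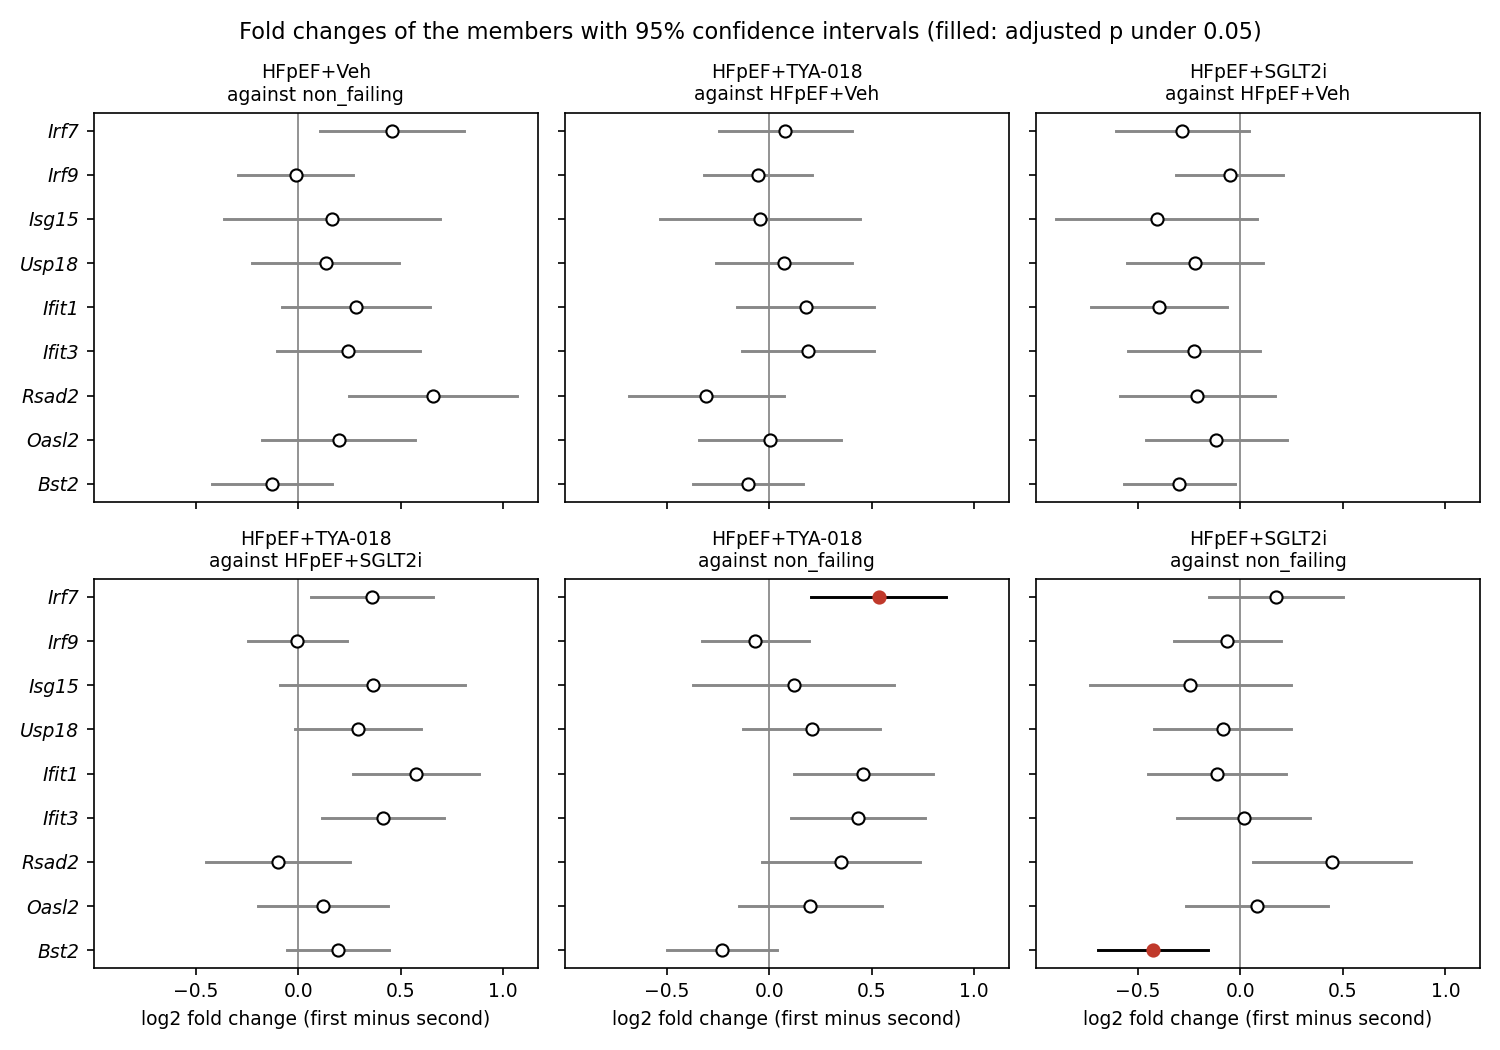
Log2 fold changes (horizontal axes) of the 9 genes in the 6 comparisons, with 95% confidence intervals as lines. Filled points mark the calls at an adjusted p under 0.05, Irf7 at 0.53 in HFpEF+TYA-018 and Bst2 at -0.42 in HFpEF+SGLT2i, each against non_failing.

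The rest of the pathway was followed in a list of 93 genes, of which 81 were tested. The interferons themselves were not measurable, since none of the 10 ligands listed passed the filter. Ifnb1 had at most 3 counts in a library and Ifng at most 4, and Ifna1 and Ifna4 had 0 counts in every library. Both receptor chains were detected, with mean TPM in HFpEF+Veh of 6.36 for Ifnar1 and 17.8 for Ifnar2. Of the kinases, Jak1 had 14.8 TPM and Tyk2 2.25 TPM in that group, and Tyk2 was listed at 0 in libraries of the other 3 groups, among them V2503, V2543 and V2562. Stat2 had 6.25 TPM. None of the 4 receptor genes was called in any comparison.

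In HFpEF+TYA-018 against non_failing 2 of the 81 genes were called, both higher, beside 7.39% of all genes. The count was 6 by DESeq2, 4 with a length offset and 1 by limma, and on leaving out a library it was 4 without V2508, V2547, V2550 or V2571, 1 without V2555 and 2 or 3 otherwise. Without V2523 it was 3, in a fit that called 592 of all 13801 genes higher and 531 lower. The third was I830012O16Rik (0.43, edgeR adjusted p 0.0444). This is Ifit3b, the copy of Ifit3, so its value is not independent of that of Ifit3. Ifi27l2a, an interferon-induced gene, was at 0.81 (edgeR adjusted p 0.0239, above the non_failing mean in 10 of 11 hearts), and lost the call without V2555 (0.62, adjusted p 0.0675) and with limma on log2(TPM + 1) (0.65, adjusted p 0.0790) and on log2(TPM + 0.1) (0.66, adjusted p 0.0755). In HFpEF+Veh against non_failing it was called when V2523 was left out (0.88, edgeR adjusted p 0.0342). Trex1, a nuclease that removes stray cytosolic DNA, was at 0.35 (edgeR adjusted p 0.00201, in 11 of 11 hearts) and stayed called in all 38 fits that left out a library. The other 5 comparisons gave 0 calls in the list by edgeR, and up to 3 calls under another tool or setting. In HFpEF+Veh against non_failing 10 of the 81 genes had an unadjusted p under 0.05, beside 15.9% of all genes. In HFpEF+SGLT2i against non_failing 8 of 81 did, beside 19.6% of all genes. Against HFpEF+Veh, 5 of 81 did in HFpEF+TYA-018 (all genes 17.5%) and 5 in HFpEF+SGLT2i (all genes 10%). In HFpEF+TYA-018 against HFpEF+SGLT2i 11 of 81 did (all genes 13.2%), and in HFpEF+TYA-018 against non_failing 17 of 81 (all genes 22.0%).

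By role, the 34 tested effectors of the type I response outside the 9 were mostly higher than in non_failing in each HFpEF group. The 9 genes were so in HFpEF+Veh and HFpEF+TYA-018 (7 of 9 each) but not in HFpEF+SGLT2i (4 of 9). Many genes of the wider list varied together with the 9 between hearts, so counts of direction are not separate observations. In HFpEF+Veh 31 of the 34 were higher than in non_failing (median log2 fold change 0.21), in HFpEF+TYA-018 30 of 34 (0.23) and in HFpEF+SGLT2i 26 of 34 (0.11), with medians of 0.01 over all genes in each, of which 52.3%, 51.0% and 51.3% were higher. Those at an unadjusted p under 0.05 were 7, 12 and 5 of the 34, beside 15.9%, 22.0% and 19.6% of all genes, and 1 was called, Ifi27l2a in HFpEF+TYA-018, beside 7.39% of all genes. Without V2523 HFpEF+Veh had 30 of the 34 higher (median 0.27), and 10 of those at an unadjusted p under 0.05, beside 19.0% of all genes in that fit. Against HFpEF+Veh, HFpEF+SGLT2i had 28 of the 34 lower (median -0.14), where 48.4% of all genes were lower, and without V2523 30 of 34 (median -0.15, all genes 48.6%). HFpEF+TYA-018 had 19 of 34 lower than HFpEF+Veh (median -0.02), where 51.8% of all genes were lower, and without V2523 26 of 34 (median -0.04, all genes 50.3%). The 17 effectors known mainly from interferon gamma had medians of 0.02, -0.01 and -0.08 in the 3 comparisons with non_failing, and none was called in any. The 5 other interferon regulatory factors were all on the lower side with TYA-018 against vehicle (median -0.27), with none called, and 4 of the 5 were so without V2523 (median -0.29, none called).

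Between hearts of a group the 9 genes moved together. After each group's mean was subtracted, the 36 pairs of genes had Spearman correlations of 0.55 to 0.80 over 38 libraries (median 0.63). The closest pairs were Ifit1 with Rsad2 (0.80) and Irf9 with Bst2 (0.80), and the loosest Ifit1 with Oasl2 (0.55). Isg15 and Ifit3 were each most like Rsad2 (0.69 and 0.80), Irf7 most like Bst2 (0.77), Oasl2 most like Irf9 (0.77) and Usp18 most like Ifit1 (0.68). Such values describe these libraries and carry no test, and the points share the depth and composition of each library.

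Single hearts stood out across nearly the whole set. The mean of the 9 genes, in standard deviations from the group mean, was highest in HFpEF+TYA-018 V2551 (1.73), HFpEF+SGLT2i V2571 (1.56) and HFpEF+TYA-018 V2555 (1.25), with 9 of 9 genes above the group mean in each. It was lowest in non_failing V2501 (-1.56), HFpEF+SGLT2i V2563 (-1.19) and V2565 (-1.17), with 0 of 9 above. V2523 was at -0.95, with 0 of 9 genes above its group mean.

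**Figure D4:**
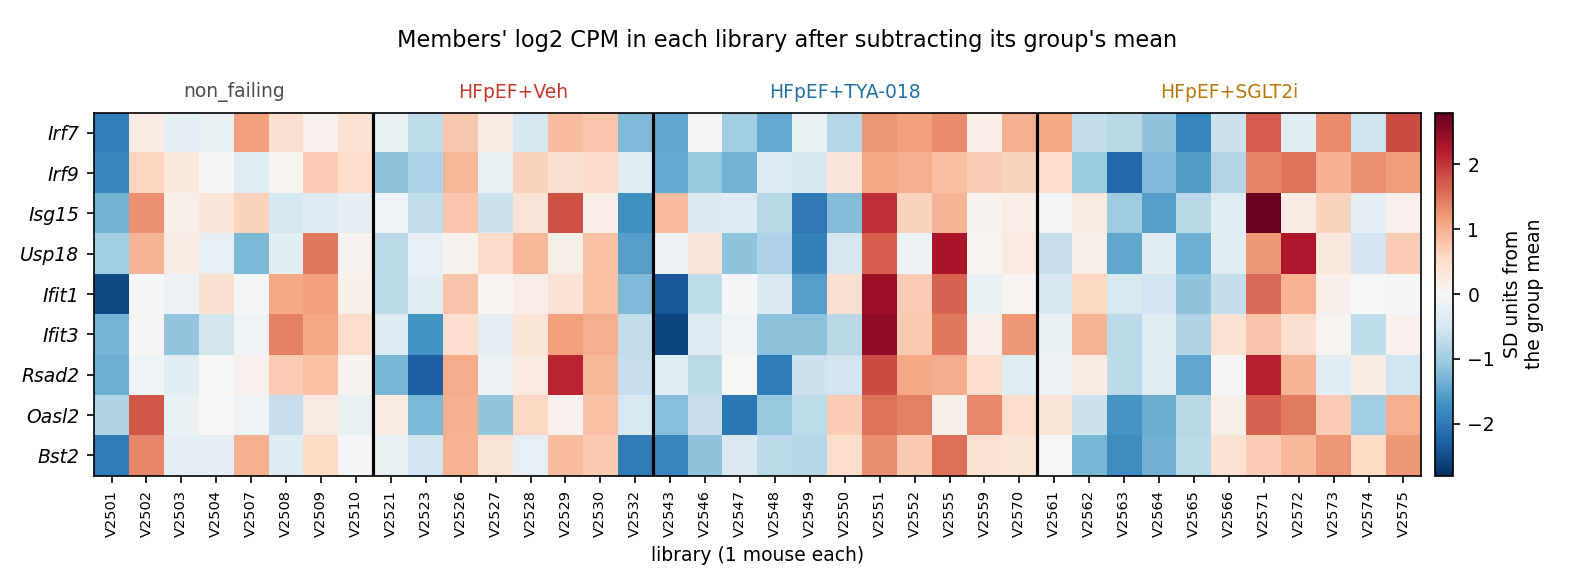
Log2 CPM of the 9 genes (rows) in each library (columns) after subtraction of the group mean, in SD units by colour. Whole columns share a colour, as in V2501 (mean -1.56) and V2551 (mean 1.73).

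The genes outside the 9 whose levels followed their mean most closely were Ifitm3 (Spearman 0.88), Phf11d (0.85), Xaf1 (0.85), Ifi35 (0.83) and Slfn2 (0.82), which are interferon-induced genes of the wider list. Behind them came Icam2, an endothelial adhesion molecule (0.82), Ly6a, a surface antigen of endothelial and progenitor cells (0.82), Bax, which promotes apoptosis (0.81), and Casp12 (0.81). The 99th percentile over all genes tested was 0.71. Of the 81 genes of the wider list 39 lay above the 95th percentile of all genes, 0.59.

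The same mean also went with depth and with the make-up of the tissue. Its Spearman correlation with depth was -0.52, and Pearson's -0.48 (-0.40 without the 2 libraries farthest from the median depth). Among the single genes Spearman with depth ran from -0.25 for Ifit3 to -0.54 for Irf9. Over all genes tested this correlation had a 5th percentile of -0.54 and a 95th percentile of 0.58. With the summed cardiomyocyte markers Spearman was -0.61 and Pearson -0.65 (-0.57 without the 2 farthest). For single genes, the 5th and 95th percentiles of Spearman with this mean were -0.67 and 0.59 over all genes tested. With B cell markers Spearman was 0.53, with macrophage 0.46, with endothelial 0.45, with monocyte 0.41, with T and NK cell 0.38 and with fibroblast markers 0.29. Their part in the levels of the 9 genes was not tested.

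The 5 cardiomyocyte markers, all detected in every library, summed to 21333 to 27450 CPM in non_failing, 17541 to 22731 in HFpEF+Veh, 18577 to 25751 in HFpEF+TYA-018 and 14149 to 22977 in HFpEF+SGLT2i, and 2 of the 5 were called lower in HFpEF+Veh and in HFpEF+SGLT2i against non_failing. The 8 macrophage markers summed to 150 to 285 CPM, 209 to 364, 173 to 431 and 202 to 364 CPM in the same order, and none of the 8 was called in any comparison. Of the 4 monocyte markers 1 was called higher in HFpEF+Veh, 1 in HFpEF+TYA-018 and 2 in HFpEF+SGLT2i against non_failing. Of the 5 fibroblast markers 2 were called higher in HFpEF+Veh, 1 higher in HFpEF+TYA-018, and 1 higher and 1 lower in HFpEF+SGLT2i, and of the 5 pericyte and smooth muscle markers 1 was called lower in HFpEF+Veh and 1 higher and 1 lower in HFpEF+TYA-018, each against non_failing. Without V2523 HFpEF+Veh had 0 of the 4 monocyte markers called against non_failing by edgeR (0 also at an unadjusted p under 0.05, all 4 higher), 2 of the 5 fibroblast markers called higher, 2 of the 5 cardiomyocyte markers called lower, and 1 pericyte and smooth muscle marker called higher and 1 lower. The 4 B cell markers summed to 0.743 to 6.01 CPM over all libraries. Plasmacytoid dendritic cells, the specialised source of interferon alpha, had marker sums of at most 1.64 CPM, with none of 4 markers passing the filter. HFpEF+SGLT2i V2571, a high library for the 9 genes, had the lowest cardiomyocyte sum (14149 CPM) and the highest neutrophil sum (156 CPM) of all 38.

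**Figure D5:**
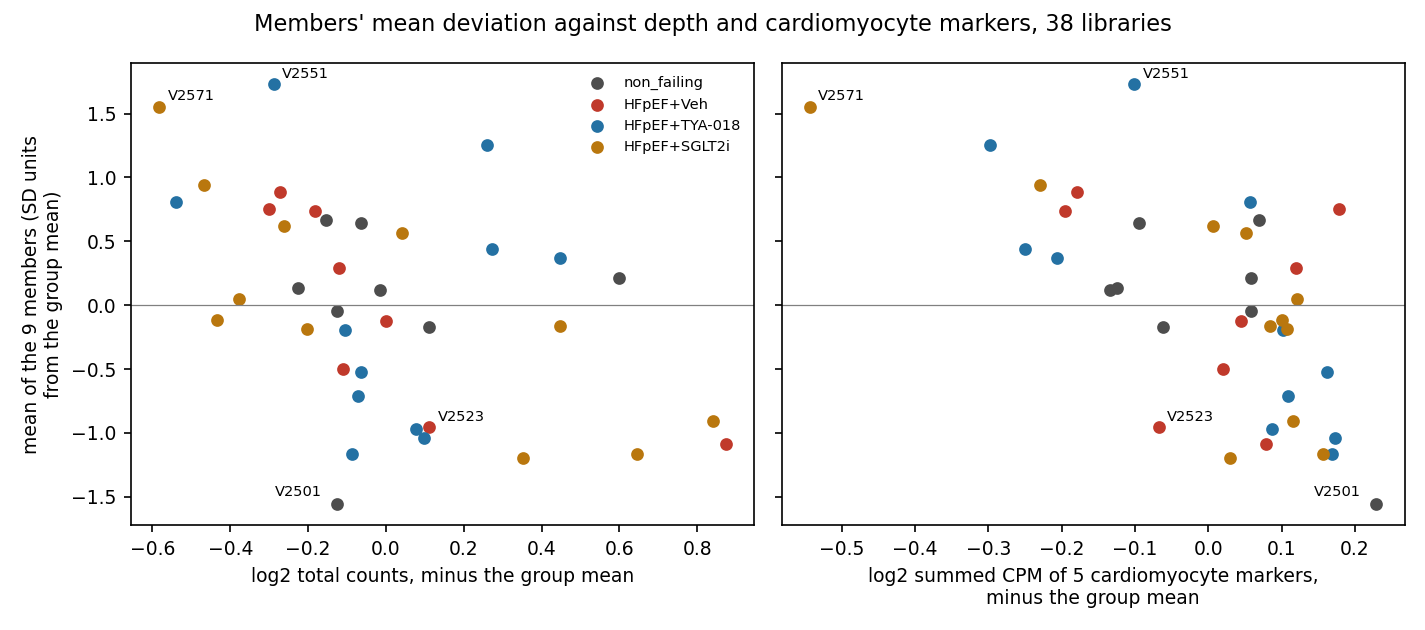
Mean of the 9 genes (vertical axis, SD units from the group mean) against log2 total counts (left) and log2 summed CPM of 5 cardiomyocyte markers (right), each minus the group mean, for 38 libraries coloured by group. The points fall from left to right in both panels (Spearman -0.52 and -0.61).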

How the data were processed

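RNA-seq data of 38 left ventricles were analysed. Per the paper, reads were trimmed with fastp, quantified on GRCm38 transcripts with salmon (version 1.6.0 in the submitters' processing notes, which name a human build) and summed to genes with tximport. The expected counts and TPM were deposited by the authors, with a table of effective lengths, in bases. The 9 genes and all lists were chosen with earlier results of these data known. Expected counts were rounded, genes kept with filterByExpr, and libraries scaled with TMM factors in edgeR 4.0.16 (R 4.3.3). Groups were taken from sample titles, and 6 comparisons were tested in 1 model of 4 groups with the two-sided quasi-likelihood F test, adjusted by the Benjamini-Hochberg method over 13765 genes and called at an adjusted p under 0.05. Standard errors were derived from each fold change and its F statistic. The scripts were tested on simulated counts. Alternatives were RLE factors, library size alone and DESeq2 1.42.0. Limma 3.58.1 was run on log2(TPM + 1) and on log2(TPM + 0.1) of non-mitochondrial genes detected in at least 90% of libraries and rescaled. Further alternatives were no filter, a minimum of 1 CPM in 8 libraries, a length offset and only the 2 groups compared. Counts of Ifit1 and Ifit3 were also summed with those of their copies, and each library was left out. For likeness, log2 CPM (prior count 2) minus group means were correlated. Text names the 9 genes, called genes of the wider list and, of the 10 genes most like the mean of the 9, all but an item not reported here. The 166 pairs of libraries within groups all differed by more than sampling noise (lowest chi-square over its degrees of freedom 16.6), so none was a copy. Mouse numbers differ between groups, and nothing was paired. Each library is 1 mouse. Read length and layout (single or paired end) differ between the labels and the paper. Gene positions are from GENCODE M21 and promoters from RefSeq, both GRCm38. The unmapped columns numbered 0.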

Additional observations from a re-analysis of the deposited data

Results flagged for a closer look

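Outlying libraries were looked for in the groups of 8, in 18 sets of values, with Dixon's criterion, by which chance picks out about 1 set in 20. In non_failing, Ifit1 had 3.03 CPM in V2501, well under the next library at 5.43 CPM. V2501 was the lowest non_failing library for 8 of the 9 genes, all but Usp18. Also in non_failing, Oasl2 had 15.7 CPM in V2502, far above the next at 10.8 CPM.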

How the results depend on the processing

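No paired analysis was possible because the groups share no mouse numbers. Leaving out each library gave 0 to 1 called of the 9 genes in HFpEF+Veh against non_failing, 0 to 3 in HFpEF+TYA-018 against non_failing and 0 to 1 in HFpEF+SGLT2i against non_failing, and 0 in the other 3 comparisons in all 38 fits. With library size alone and with DESeq2 1 gene was called in HFpEF+Veh against non_failing, and with DESeq2 1 in HFpEF+TYA-018 against HFpEF+SGLT2i. In HFpEF+TYA-018 against non_failing 0 were called with library size alone and with limma on log2(TPM + 1) and log2(TPM + 0.1), and in HFpEF+SGLT2i against non_failing 0 with these 3, without a filter on low counts and with only the 2 groups compared, the last of which has fewer samples. Other causes were not tested.

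Signs turned mostly where the log2 fold change was near 0, with Ifit1 as an exception (0.28 in HFpEF+Veh against non_failing and 0.18 in HFpEF+TYA-018 against HFpEF+Veh). In HFpEF+Veh against non_failing Irf9 was at 0.046 with library size alone, 0.083 with limma on log2(TPM + 1) and 0.091 with log2(TPM + 0.1), and Ifit1 at -0.013 with copies summed. In HFpEF+TYA-018 against HFpEF+Veh library size alone gave -0.049 for Irf7, -0.12 for Oasl2 and -0.053 for Usp18. Limma on log2(TPM + 1) gave -0.070 for Irf7, -0.0050 for Ifit1, -0.15 for Oasl2 and -0.064 for Usp18, and on log2(TPM + 0.1) -0.076, -0.013, -0.17 and -0.088. Oasl2 was at -0.00032 with DESeq2, -0.0050 without a filter and -0.0096 with a length offset. In HFpEF+TYA-018 against HFpEF+SGLT2i Irf9 was at 0.0015 and 0.0048 with limma and 0.046 with a length offset, and in HFpEF+SGLT2i against non_failing Ifit3 at -0.014 with a length offset. Leaving out a library gave -0.072 to 0.029 for Irf9 in HFpEF+Veh against non_failing. In HFpEF+TYA-018 against HFpEF+Veh it gave -0.061 to 0.058 for Oasl2, -0.18 to 0.12 for Isg15 and -0.027 to 0.12 for Usp18. It gave -0.10 to 0.0010 for Irf9 in HFpEF+SGLT2i against HFpEF+Veh, -0.056 to 0.042 for Irf9 and -0.19 to 0.016 for Rsad2 in HFpEF+TYA-018 against HFpEF+SGLT2i, -0.016 to 0.23 for Isg15 in HFpEF+TYA-018 against non_failing and -0.042 to 0.093 for Ifit3 in HFpEF+SGLT2i against non_failing. Over the values of the 9 genes in the 6 comparisons and of Ifi27l2a and Trex1 in HFpEF+TYA-018 against non_failing, 69 turned sign, 9 gained a call and 34 lost one. Counts of called genes of the wider list ranged from 0 to 6 over the alternatives and from 0 to 4 on leaving out a library. The precision is limited by 56 to 1240 counts per gene and library and by the number of hearts.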

Other observations

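The following genes of the wider list were chosen after their values were seen, and none was called. Samhd1, which depletes nucleotides in infected cells, lay below the HFpEF+SGLT2i mean in 11 of 11 TYA-018 hearts (log2 fold change -0.21, unadjusted p 0.00103, edgeR adjusted p 0.103). Its mean was 26.5 CPM in HFpEF+TYA-018, 27.0 in HFpEF+Veh and 27.3 in non_failing, and 30.8 in HFpEF+SGLT2i. The group that stood apart was thus HFpEF+SGLT2i, at 0.19 against HFpEF+Veh (edgeR adjusted p 0.211) and 0.17 against non_failing (0.115). Irf5 was below the vehicle mean in 10 of 11 TYA-018 hearts (-0.38, unadjusted p 0.0215, edgeR adjusted p 0.195), and without V2523 it was at -0.42 (unadjusted p 0.0145, edgeR adjusted p 0.147). Oas3, an oligoadenylate synthetase, was above non_failing in all 3 HFpEF groups, by 1.00 in HFpEF+Veh, 1.17 in HFpEF+TYA-018 and 1.12 in HFpEF+SGLT2i on the log2 scale, with edgeR adjusted p-values of 0.208, 0.0584 and 0.0799 and mean levels of no more than 0.507 CPM.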
